A study of Mus musculus with 6 samples.

Results

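The genes described here encode the factors that start protein synthesis on the ribosome and carry it along the messenger RNA, together with the kinases and methyltransferases named after them. They were taken as the probe sets whose only gene symbol in the platform annotation begins with Eif or Eef and a digit, without Eif2s3x and Eif2s3y. This gave 150 of 45037 probe sets (a probe set is a group of short oligonucleotides that report on 1 transcript), from 56 genes. Of these, 112 probe sets from 53 genes were bright enough to be tested. The rule itself reads names and no measured value, but this set was proposed with earlier results of these data known.

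In initiation, eIF2 brings the initiator methionyl tRNA to the small ribosomal subunit, eIF3 and eIF1A hold that complex together, and the eIF4 factors bind the cap of the messenger RNA and unwind its leader. eIF5 and eIF5B then complete start codon recognition and the joining of the large subunit. In elongation, eEF1A delivers each aminoacyl tRNA and eEF2 moves the ribosome by a codon. In neurons these steps are also controlled near synapses, through the kinases of eIF2 alpha, the eIF4E-binding proteins and the kinase of eEF2.

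Total RNA was profiled on 6 one-colour Affymetrix arrays. It came from midbrain, described in the design as diencephalon with basal ganglia, of 3 Dap12-knockout mice (67, 68 and Ko1) and 3 Dap12-heterozygous mice (75, 76 and 81), all 1 month old and with no treatment named. Dap12, the product of Tyrobp, is the adaptor through which receptors such as Trem2 signal in microglia, the macrophages of brain tissue. The heterozygous controls thus carry 1 disrupted copy of the gene themselves, and the source label calls the brains of both groups Dap12-deficient. The sources used here give no construct, strain, sex or litter, and no wild-type group was analysed here. The comparison asks which transcripts differ between brains without Dap12 and brains with 1 functional copy.

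Tyrobp itself read 2.28 (67), 23.7 (68) and 12.9 (Ko1) in the knockouts and 70.7 (75), 68.2 (76) and 77.6 (81) in the heterozygotes. All knockout arrays lay below all heterozygous arrays (log2 difference -1.68 ± 0.34 SE, limma adjusted p = 0.0461), and the position of this probe set relative to the disrupted part of the gene was not looked at. Omitting a single array, Ko1 excepted, ended the call, with differences of -1.94 to -1.38 over all 6 omissions. Flooring signals at 1, with no constant added, gave -3.02 (adjusted p = 0.105). Signals here are linear intensities scaled so that the trimmed mean of each array is 100, and log2 differences are knockout minus heterozygous after adding 16, which understates the change of dim probe sets.

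The arrays differed beyond these genes. Of 42 spiked controls with a mean signal above 10, 42 had all 3 knockout signals above all 3 heterozygous signals. Their array medians were 8102 to 12350 against 3860 to 4175. Such controls are added to the sample in the course of its preparation and are not mouse transcripts. Spearman correlations over all probe sets were 0.935 to 0.974 among heterozygous arrays, 0.876 to 0.908 between Ko1 and these, and 0.802 to 0.894 between either of 67 and 68 and the arrays other than this pair. Ratios of 3′ to 5′ actin probe sets were 1.76 to 2.33 on knockout and 1.59 to 2.12 on heterozygous arrays. Markers of neurons and oligodendrocytes were present on every array, and their summed signals were 17740 to 27460 (neurons, 9 genes) and 27930 to 65480 (oligodendrocytes, 7 of 8 listed genes) on knockout arrays against 15720 to 16940 and 20170 to 20740. These sums rest on a few bright genes. Of the 9 neuronal markers 2 were all above and 1, Tubb3 (-0.44), all below, and of the 7 oligodendrocyte markers 4 were all above and 0 all below. Mbp alone gave 36160 of the 65480 on 67, whereas Mag on Ko1 (564.7) was below every heterozygous array (1054 to 1317). Astrocyte markers (6 genes) summed to 7796 to 9014 against 6521 to 8653, microglial markers (10 of 11) to 2486 to 2785 against 1712 to 2119, endothelial markers (5) to 276.7 to 445.5 against 340.2 to 360.1, and blood markers (3) to 78.5 to 149.4 against 36.57 to 60.04. Of the 4 choroid plexus markers, Ttr gave nearly all of the signal on 67 and 68, at 16070 and 17640, with 401.6 on Ko1 and 621.6 to 3532 on heterozygous arrays. Kl, Folr1 and Otx2 stayed under 100 on every array. Kl and Folr1 were all above on the knockout arrays and highest on 67 and 68, and Otx2 overlapped. Pituitary markers (4) summed to 646.4 on Ko1 and to between 36.9 and 100.7 on the other 5 arrays. The part of these differences in the results below was not tested, and genotype and array-wide technical differences cannot be told apart. In bulk tissue, fewer cells of a type and less RNA per cell cannot be told apart either.

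Among the translation factors, the RNA helicase gene Eif4a1 was the one gene with probe sets past the test. Of 112 probe sets tested, 2 were higher and 0 were lower at an adjusted p under 0.05 (limma), both of them of Eif4a1. Over all 22518 probe sets tested, 1.32% were called higher and 0.751% lower. At an unadjusted p under 0.05 there were 26, of which 12 were higher and 14 lower, against 21.2% of all probe sets. The knockout arrays all lay above the heterozygous arrays for 18 (16.1%; 15.1% of all probe sets) and all below for 14 (12.5%; 12.5% of all), and the groups overlapped for the other 80. The median log2 difference was -0.03 against 0.0037 over all probe sets, with 51 differences above 0 and 61 below. These shares are near those of all probe sets. The 18 all above include 1422005_at of Eif2ak2 and 1455797_x_at of Eif2d, which were bright enough for testing through the knockout arrays alone.

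The split between directions depended on the scaling of the arrays. With arrays centred on their medians instead of the deposited scaling, the median of all probe sets moved to -0.40 and that of the translation factors to -0.43. The groups then did not overlap for 6 factors above (5.36%; 5.52% of all probe sets) and 35 below (31.2%; 30.2% of all), shares again near those of all probe sets. The 6 include the same probe sets of Eif2ak2 and Eif2d. Among all probe sets 580 were called, 102 higher and 478 lower, against 297 higher and 169 lower with the deposited scaling. The 2 calls were then 1 higher, in Eif4a1, and 1 lower, in Eif4ebp2.

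**Figure D1:**
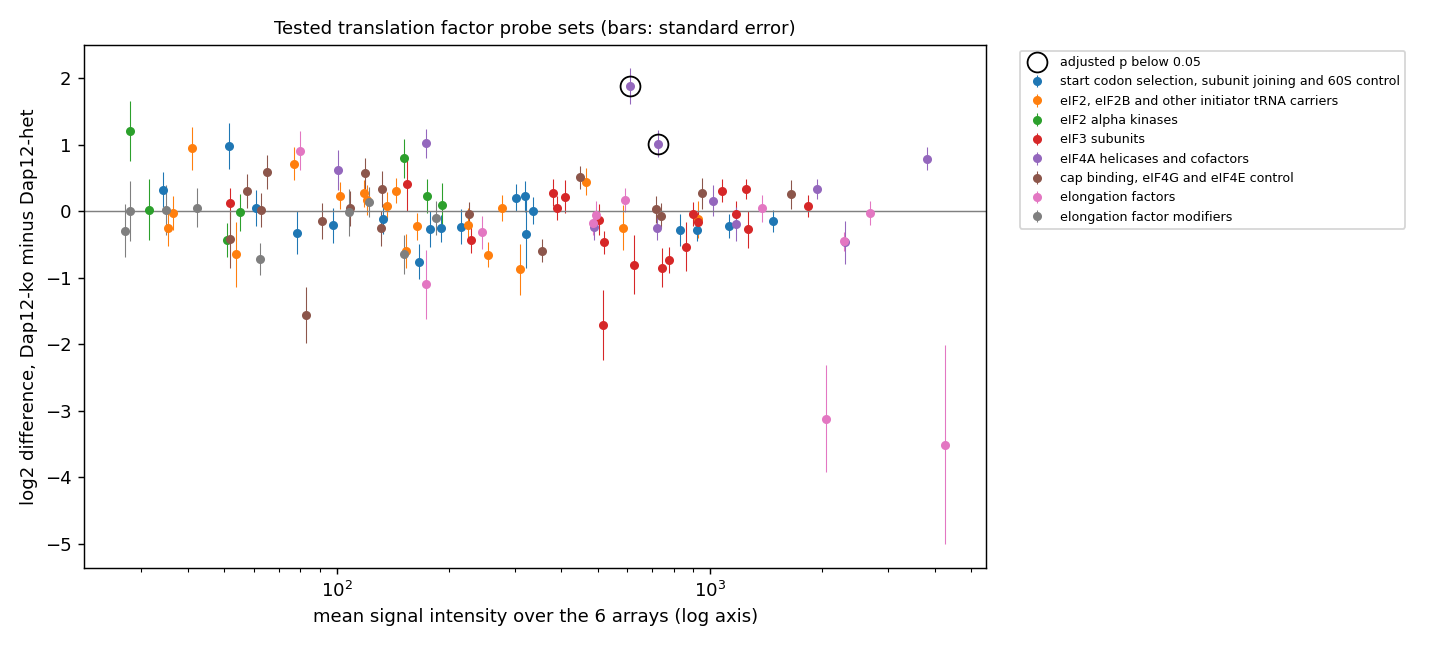
Log2 difference (Dap12-ko minus Dap12-het, y axis) of the 112 tested translation factor probe sets against their mean signal intensity over the 6 arrays (x axis, log scale). Colours give the role, bars the standard error from limma, and black rings the 2 Eif4a1 probe sets past the threshold, at 1.87 and 1.01; the 2 lowest points are Eef1a1 and Eef1a2, with the widest bars.

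The promoters of 5 genes are shown because the results turn on them: the paired helicase genes Eif4a1 and Eif4a2, the paired elongation factor genes Eef1a1 and Eef1a2, and Eef2. Each is the 150 bases before the annotated start from RefSeq on mouse build GRCm38.p6, 5′ to 3′ on the gene's own strand. They lie at chr11:69672424-69672573 (minus strand, Eif4a1), chr16:23107318-23107467 (plus strand, Eif4a2), chr9:78481725-78481874 (minus strand, Eef1a1), chr2:181157016-181157165 (minus strand, Eef1a2) and chr10:81176481-81176630 (plus strand, Eef2). Capitals mark matches, on either strand, to the TATA box letters TATAAA, to the CCAAT box, to the GC box GGGCGG, to the E box CACGTG and to TGACGT, the core of the cyclic AMP response element. None of the marked matches overlap.
Eif4a1: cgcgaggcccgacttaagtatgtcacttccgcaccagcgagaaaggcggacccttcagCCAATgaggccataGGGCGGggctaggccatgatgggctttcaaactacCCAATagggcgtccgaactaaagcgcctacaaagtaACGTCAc
Eif4a2: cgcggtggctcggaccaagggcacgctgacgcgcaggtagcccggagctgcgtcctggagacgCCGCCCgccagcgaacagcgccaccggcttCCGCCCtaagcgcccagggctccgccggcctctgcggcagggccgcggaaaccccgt
Eef1a1: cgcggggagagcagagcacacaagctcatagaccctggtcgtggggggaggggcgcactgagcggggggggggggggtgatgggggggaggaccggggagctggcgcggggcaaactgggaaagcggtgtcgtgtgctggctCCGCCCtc
Eef1a2: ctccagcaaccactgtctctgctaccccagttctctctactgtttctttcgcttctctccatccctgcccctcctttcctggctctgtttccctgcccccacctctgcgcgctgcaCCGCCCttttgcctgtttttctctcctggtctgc
Eef2: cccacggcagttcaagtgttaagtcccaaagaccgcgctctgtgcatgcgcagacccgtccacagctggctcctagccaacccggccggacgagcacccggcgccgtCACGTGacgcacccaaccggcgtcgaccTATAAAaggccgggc
Eif4a1 held CCAAT boxes, a GC box and a TGACGT match, and Eif4a2 held GC boxes alone. Both eEF1A genes held a GC box and no other of these motifs in the printed bases. Eef2 was the one of the 5 with TATAAA, beside an E box. GC content was 56.7% for Eif4a1, 76% for Eif4a2, 72.7% for Eef1a1, 58% for Eef1a2 and 66% for Eef2. Over 250 bases before the start, GGGCGG was present in 65% of 60 promoter windows of 45 translation factor genes against 32.7% of all 32851 windows. The other shares were 21.7% against 6.02% for CACGTG, 16.7% against 6.47% for TGACGT, 25% against 33.8% for CCAAT and 5% against 12.4% for TATAAA. These are matches of letters, and no binding was measured.

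The eIF4A helicases and their cofactors held both calls and the highest median of the 8 role groups. eIF4A is the RNA helicase that opens the leader of the messenger RNA, and eIF4B and eIF4H stimulate it. Of 14 probe sets of 5 genes, 11 were tested, with a median log2 difference of 0.33. Of these 2 rose, 0 fell and 9 did not pass, and the knockout arrays lay all above for 5 and all below for 1, beside 1.32% called higher, 15.1% all above and 12.5% all below among all probe sets. With arrays centred on their medians the group's median was -0.068, against -0.40 over all probe sets. Then 4 were all above and 2 all below (36.4% and 18.2%; 5.52% and 30.2% of all probe sets with that centring).

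Eif4a1, the more widely expressed helicase gene, had 3 tested probe sets that did not give 1 answer. Its probe set 1430980_a_at read 923.8, 1260 and 732.1 on knockout arrays 67, 68 and Ko1, and 249.4, 326.4 and 184.1 on heterozygous arrays 75, 76 and 81, the order kept below. All knockout arrays lay far above all heterozygous arrays, and the means were 971.9 ± 267 and 253.3 ± 71.2 (SD, n = 3), a 3.84-fold ratio. It rose by 1.87 ± 0.27 in log2 units (adjusted p = 0.0228, limma). The probe set 1427058_at read 975.5, 1166 and 795.8 on the knockout arrays and 466.2, 529.7 and 422.6 on the heterozygous arrays. The groups again did not overlap, with means of 979.2 ± 185 and 472.8 ± 53.9 (SD, n = 3), and it rose by 1.01 ± 0.20 (adjusted p = 0.0443). The brightest Eif4a1 probe set, 1434985_a_at, read 871.8, 894.3 and 1502 on the knockout arrays and 1005, 912.1 and 923.8 on the heterozygous arrays. Here 67 and 68 lay just below the heterozygous arrays and Ko1 well above them (0.15 ± 0.23, adjusted p = 0.739; -0.25 with arrays centred on their medians).

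Neither Eif4a1 call survived the omission of a single array other than Ko1. Over all 6 omissions the differences were 1.67 to 2.07 for the first and 0.88 to 1.15 for the second, with adjusted p of 0.0643 to 0.138 and 0.12 to 0.216 where the call ended. The second also missed the threshold with arrays centred on their medians (0.61, adjusted p = 0.113), and by less with quantile normalization (adjusted p = 0.0603), flooring at 1 (0.0506), all probe sets tested (0.0727) and no trend in eBayes (0.0689).

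Eif4a2, the paralogue that is abundant in brain, read 4643, 5818 and 4059 on the knockout arrays and 2882, 2957 and 2484 on the heterozygous arrays. All 3 knockout arrays were above all heterozygous arrays, with means of 4840 ± 896 and 2775 ± 254 (SD, n = 3), but the difference of 0.79 ± 0.17 did not pass (adjusted p = 0.0575). It passed when the dimmest 75% of probe sets were left out (adjusted p = 0.0495), and was 0.39 with arrays centred on their medians and 0.41 with quantile normalization. Eif4a3, the helicase of the exon junction complex, was too dim to be tested.

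Eif4b had 1 dim probe set on one side of the heterozygous arrays and a bright one on the other. The dimmer, 1426379_at, read 217.8, 290.2 and 205.9 on the knockout arrays and 103.3, 128.2 and 95.2 on the heterozygous arrays. The groups were separated by a wide gap (1.02 ± 0.22, adjusted p = 0.0529). The brightest, 1426380_at, read 534.2, 733.6 and 711.2 against 789.2, 781.2 and 768.4, with all knockout arrays below (-0.25 ± 0.18, adjusted p = 0.473). The remaining one gave -0.24 ± 0.19. In Eif4h the probe set 1416941_s_at read 1921, 2303 and 2260 against 1770, 1708 and 1641, all knockout arrays above (0.33 ± 0.15, adjusted p = 0.253), but with median centring it gave -0.068 with overlap. The brightest Eif4h probe set, 1438554_x_at, read 1210 and 1581 on 67 and 68 but 3292 on Ko1, against 2719, 2627 and 2366. The first 2 knockout arrays were thus below and the other above the heterozygous range (-0.47 ± 0.32, adjusted p = 0.441).

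**Figure D2:**
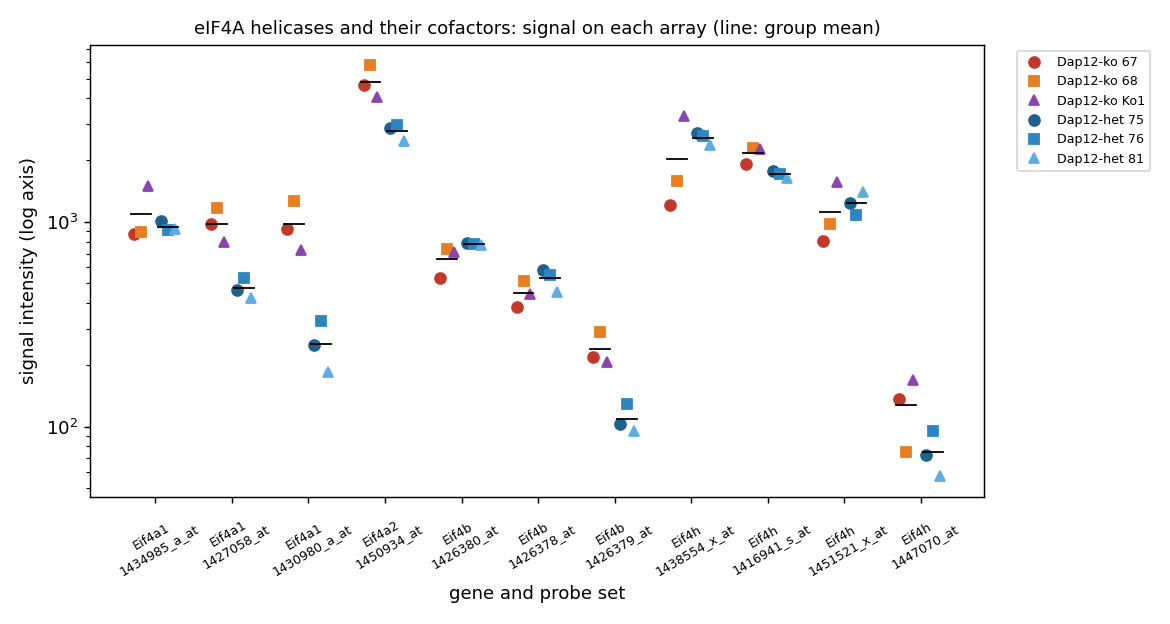
Signal intensity (y axis, log scale) on each array for the 11 tested probe sets of Eif4a1, Eif4a2, Eif4b and Eif4h. Points are single arrays, red to purple for Dap12-ko and blue for Dap12-het, and lines are group means. All 3 knockout points lie above all heterozygous points for 1427058_at and 1430980_a_at of Eif4a1, 1450934_at of Eif4a2, 1426379_at of Eif4b and 1416941_s_at of Eif4h. For the brightest Eif4a1 probe set they do not.

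Among elongation factors the 2 eEF1A genes showed the lowest log2 differences of all members, and neither passed the test. eEF1A is encoded by Eef1a1 in most cells and by Eef1a2 in mature neurons and muscle. Of the 14 probe sets of the 8 elongation factor genes, 11 were tested, 0 passed in either direction (limma), and the median difference was -0.18. Among them 1 probe set was all above and 2 were all below (9.09% and 18.2%; 15.1% and 12.5% of all probe sets).

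Eef1a1 read 74.5, 97.0 and 9640 on the knockout arrays 67, 68 and Ko1, and 5158, 5389 and 5271 on the heterozygous arrays. The heterozygous arrays agreed closely, while 67 and 68 lay 70.8-fold and 54.4-fold below their mean and Ko1 1.83-fold above it. The difference of -3.52 ± 1.496 did not pass (adjusted p = 0.223). Eef1a2 read 159.8, 153.6 and 1909 on the knockout arrays and 3501, 3519 and 3041 on the heterozygous arrays. All 3 knockout arrays were below, 67 and 68 by 21.0-fold and 21.8-fold and Ko1 by 1.76-fold relative to the heterozygous mean (-3.12 ± 0.80, adjusted p = 0.0803). The knockout means were 3270 ± 5516 for Eef1a1 and 740.9 ± 1012 for Eef1a2 (SD, n = 3), so the SD within the knockout group exceeded its mean for both. Each gene had a single probe set here.

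The difference for Eef1a1 turned with the arrays kept. Without Ko1 it was -5.71 (adjusted p = 1e-06) for Eef1a1 and -4.28 (adjusted p = 4e-06) for Eef1a2. Without 67 and 68 the single knockout array left gave 0.87 (adjusted p = 0.0254) for Eef1a1 and -0.80 (adjusted p = 0.0411) for Eef1a2, with that array assumed to vary like the others. The choroid plexus marker Ttr also set 67 and 68 (16070 and 17640) apart from Ko1 (401.6). The other 3 such markers were under 100 on every array. Of these, Kl (50.9, 73.3 and 26.6 on 67, 68 and Ko1) and Folr1 (49.1, 71.6 and 24.0) were also highest on 67 and 68. Otx2 was highest on heterozygous array 75 (89.1). The part of these markers was not tested.

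Eef2, the translocation factor, read 1819, 1993 and 1956 on the knockout arrays and 2730, 2766 and 2444 on the heterozygous arrays. All 3 knockout arrays were alike and below (1923 ± 92.0 against 2646 ± 176, SD, n = 3; -0.46 ± 0.15, adjusted p = 0.129). Unlike for the eEF1A genes, knockout 67, 68 and Ko1 stood at 0.687, 0.753 and 0.739 of the heterozygous mean, close to each other. The exchange factor subunits that recharge eEF1A were not low on both 67 and 68 in their brightest probe sets. Eef1b2 read 1061, 1396 and 1788 against 1412, 1385 and 1250 (0.04 ± 0.21, adjusted p = 0.937), and Eef1d 591.9, 484.7 and 384.3 against 516.9, 534.5 and 455.5 (-0.06 ± 0.21, adjusted p = 0.895). The groups overlapped for both. A dimmer Eef1d probe set, 1439439_x_at, did follow the order of Eef1a1, at 46.9, 55.7 and 276.2 against 226.2, 249.8 and 186.4 (-1.10 ± 0.52, limma adjusted p = 0.263).

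Eif5a, the hypusine-bearing factor that helps ribosomes past slow codons, read 2150, 2630 and 3254 against 2636, 2807 and 2615 (-0.02 ± 0.18, adjusted p = 0.955). Its paralogue Eif5a2 had probe sets on both sides of 0. The dimmer, 1438256_at, read 98.2, 155.4 and 75.4 against 62.3, 53.2 and 34.1, with no overlap (0.91 ± 0.30, adjusted p = 0.133), and the brightest gave -0.32 ± 0.25 with overlap. Eef1e1, a scaffold subunit of the tRNA synthetase complex, gave -0.18 ± 0.18.

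**Figure D3:**
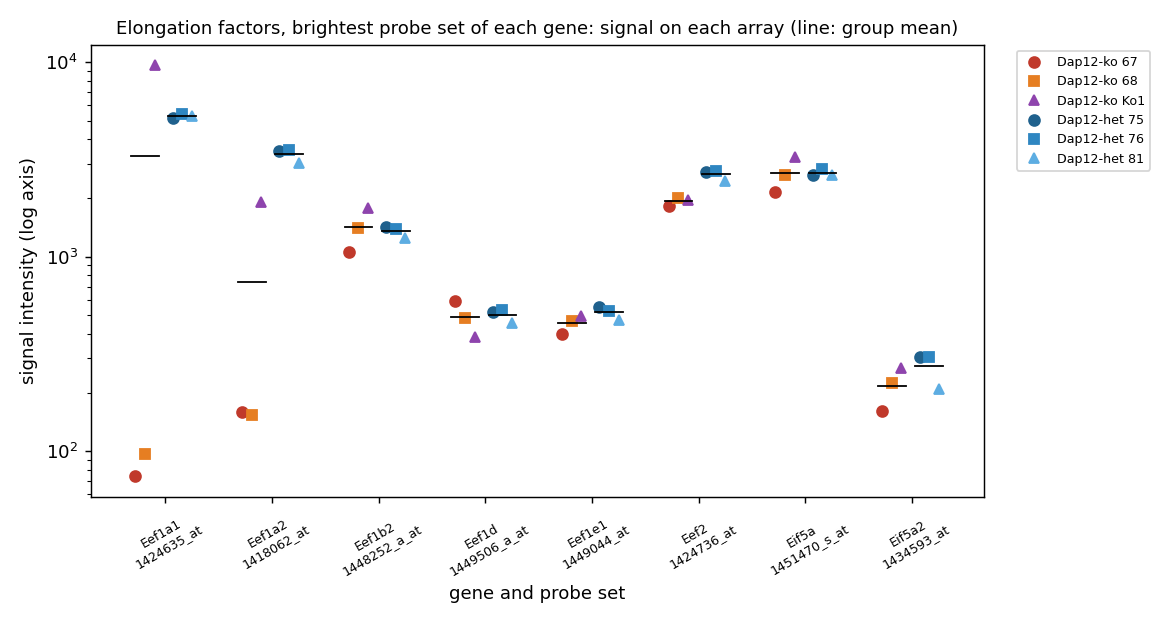
Signal intensity (y axis, log scale) on each array for the brightest probe set of each of the 8 elongation factor genes. Points are single arrays, red to purple for Dap12-ko and blue for Dap12-het, and lines are group means; Dap12-ko 67 and 68 lie at 74.5 and 97.0 for Eef1a1 and at 159.8 and 153.6 for Eef1a2, far below the other arrays, whereas for Eef2 the 3 knockout arrays lie together between 1819 and 1993.

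The order seen for Eef1a1 recurred in other members. With Eef1a1 itself included, 17 of the 112 tested probe sets had 67 and 68 below the heterozygous range and Ko1 above it. This was 15.2%, beside 6.81% of all probe sets. The order was taken from Eef1a1 in these same data, so the count is a description. Some genes, such as Eif3e and Eif4h, enter it with several probe sets. Counting also those with Ko1 inside the range gave 27 (24.1%; 13.1% of all), from 16 genes. They include probe sets of Eif1a, Eif2b2, Eif2s2, Eif3e, Eif3h, Eif4a1, Eif4h and Eif5. The mirror order, 67 and 68 above with Ko1 not above, was seen for 12 (10.7%; 13.8% of all). Taken singly, 67 was above the heterozygous range for 39 members and below for 54, where 40.6% of all probe sets were above and 36.9% below. Knockout 68 was above for 39 and below for 52 (39.5% and 36.1% of all), and Ko1 above for 54 and below for 29 (35.4% and 34.6% of all). The median log2 difference from the heterozygous mean was -0.11 on 67, -0.08 on 68 and 0.13 on Ko1, against 0.04, 0.03 and 0.0088 over all probe sets. The summed signal of the members was 50170 and 54830 on 67 and 68, 73560 on Ko1 and 61150 to 64620 on the heterozygous arrays. The knockout arrays thus lay on both sides of the heterozygous arrays.

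**Figure D4:**
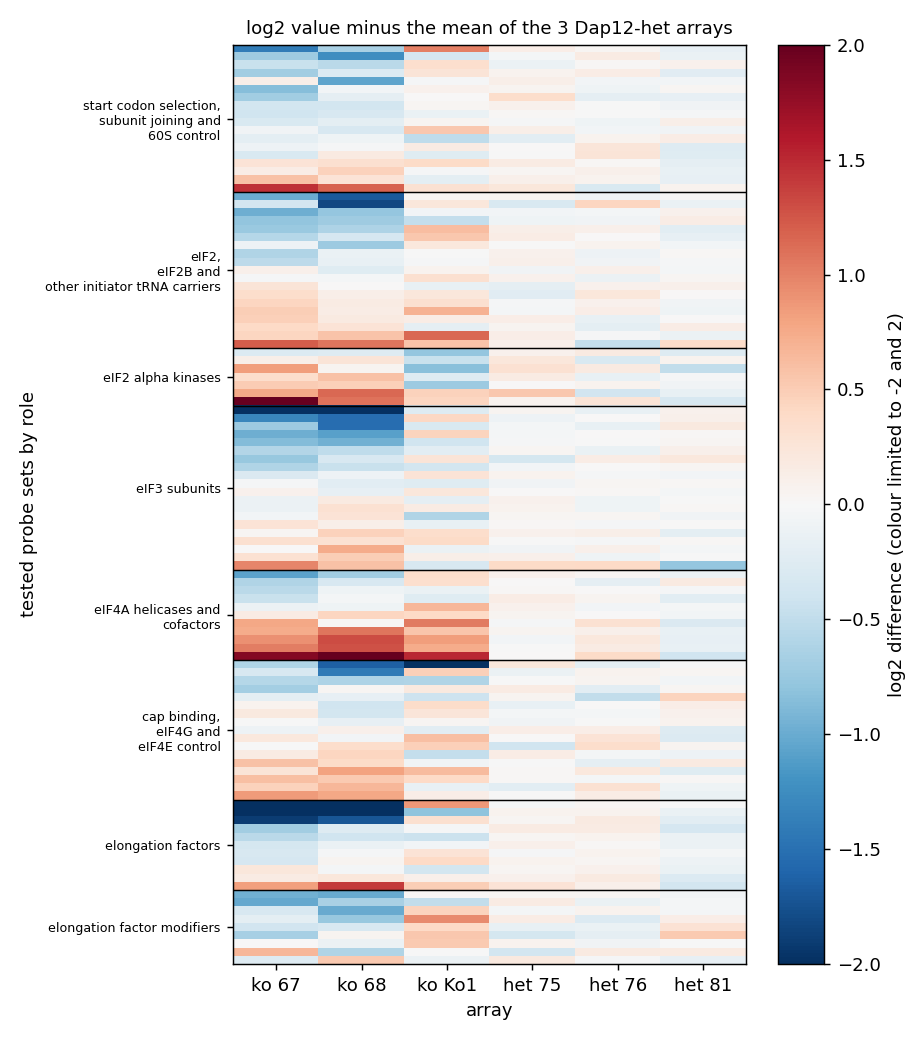
Log2 value of each tested translation factor probe set on each array (x axis) minus its mean on the 3 Dap12-het arrays, grouped by role (y axis) and sorted by the mean of Dap12-ko 67 and 68; red is higher and blue lower, with the colour limited to -2 and 2. The columns of 67 and 68 resemble each other, and many rows that are blue there are pale or red on Ko1, which was above the heterozygous range for 54 members.

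eIF3, the largest initiation factor, is a scaffold of many subunits. Of 27 probe sets of 11 subunit genes, 20 were tested and 0 passed in either direction (limma), with a median of -0.09. Among them 2 were all above and 5 all below (10% and 25%; 15.1% and 12.5% of all probe sets). With arrays centred on their medians 0 were all above and 9 all below (0% and 45%; 5.52% and 30.2% of all). Of the 5 all below with the deposited scaling, 3 were of Eif3c, a core subunit with 4 tested probe sets. Its brightest, 1415858_at, read 525.1, 490.4 and 731.3 against 952.2, 966.3 and 993, a clear gap (-0.74 ± 0.20, adjusted p = 0.0858). The probe set 1456083_x_at read 121.5, 127.7 and 617.1 against 776, 671 and 794.1, with 67 and 68 again far lower than Ko1 (-1.71 ± 0.52, adjusted p = 0.116; -0.27 without 67 and 68). The remaining below-range one gave -0.85 ± 0.30, and 1415859_at, with overlap, 0.21 ± 0.25. Eif3d, which can bind the cap itself, read 395.8, 440.9 and 468.6 against 583.4, 612.8 and 625.9 (-0.47 ± 0.17, adjusted p = 0.162). Eif3b, a core subunit, read 170.8, 180.8 and 226.7 against 271.5, 238.4 and 282.3 (-0.43 ± 0.20, adjusted p = 0.249). All knockout arrays were below for both.

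Eif3e went the other way on its brightest probe set. It read 1382, 1367 and 1440 against 1096, 1090 and 1129, tight and without overlap (0.33 ± 0.15, adjusted p = 0.244), but -0.069 with arrays centred on their medians. Its 2 other tested probe sets gave -0.54 ± 0.37 and -0.80 ± 0.45, with 67 and 68 low and Ko1 high. Eif3a, the largest subunit, gave -0.16 ± 0.16 on its brightest probe set, Eif3h -0.04 ± 0.19, Eif3k -0.04 ± 0.17 and Eif3l 0.05 ± 0.18, all with overlap.

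eIF2 and its exchange factor eIF2B set how much initiator tRNA is available. Mutations of eIF2B subunits are known to cause a leukodystrophy, vanishing white matter disease. Of 23 probe sets of 8 genes of these factors and other initiator tRNA carriers, 19 were tested and 0 passed (limma), with a median of -0.02. Among them 5 were all above and 1 all below (26.3% and 5.26%; 15.1% and 12.5% of all probe sets). With arrays centred on their medians 1 was all above and 6 all below (5.26% and 31.6%; 5.52% and 30.2% of all). The 5 include 1455797_x_at of Eif2d, which was also the 1 all above after centring and was tested because of its knockout level. The 1 below with the deposited scaling was Eif2b4, the delta subunit of eIF2B. It read 175.1, 185.2 and 221.6 against 295.9, 297.1 and 349.5. The gap between the groups was wider than either group (-0.66 ± 0.19, adjusted p = 0.105). Of the other eIF2B subunits, Eif2b3 was all above at 177, 143.1 and 163.1 against 124.9, 136.2 and 119.4 (0.31 ± 0.19, adjusted p = 0.387; -0.095 with arrays centred on their medians). Eif2b1 gave -0.23 ± 0.21 and Eif2b5, the catalytic subunit, 0.04 ± 0.20, both with overlap. Eif2b2 had probe sets on both sides, at -0.88 ± 0.38, -0.60 ± 0.26 and 0.71 ± 0.25. The subunits thus did not share a direction.

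Eif2s2, the beta subunit of eIF2, was read by 6 tested probe sets between -0.25 and 0.44. The brightest read 628.5, 737.7 and 1369 against 1038, 949.2 and 840.8, with 67 and 68 below and Ko1 above (-0.12 ± 0.28, adjusted p = 0.835). Eif2d, which can place initiator tRNA without eIF2, had a dim probe set, 1455797_x_at, at 72.1, 64.2 and 40.4 against 25.2, 11.5 and 33.1. All knockout arrays were above (0.95 ± 0.32, adjusted p = 0.146). Its knockout mean was 58.9 and its heterozygous mean 23.3, under the mean signal of 26.7 needed for testing, so it was tested because of its knockout level and its difference is a description. The brightest Eif2d probe set gave 0.27 ± 0.20. Eif2a, another such carrier, gave 0.08 ± 0.20 on its brightest probe set.

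The 4 kinases of eIF2 alpha slow initiation under stress. They had 13 probe sets, of which 7 were tested, and 0 passed (limma), with a median of 0.09. Eif2ak2, the double-stranded RNA sensor PKR, which interferon induces, read 88.2, 36.2 and 17.1 on the knockout arrays and 9.85, 13.2 and 3.58 on the heterozygous arrays. All knockout arrays were above, but widely spread among themselves (1.20 ± 0.46, adjusted p = 0.181). With means of 47.2 and 8.88, this probe set too passed the limit of 26.7 through the knockout arrays alone, and its difference is a description. Eif2ak1, the heme-regulated kinase, gave 0.22 ± 0.25, 0.79 ± 0.29 and -0.44 ± 0.26 on its 3 tested probe sets, with overlap in each. Eif2ak3, the endoplasmic reticulum kinase PERK, read 259.5, 255.8 and 102 against 178.8, 187.7 and 168.8. Knockout 67 and 68 were above and Ko1 below (0.09 ± 0.33, adjusted p = 0.902; -0.31 with arrays centred on their medians). Eif2ak4, the amino acid sensor GCN2, gave -0.02 ± 0.28.

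Cap binding is the step controlled by mTOR through the eIF4E-binding proteins. Of 29 probe sets of 8 genes for cap binding, eIF4G scaffolds and eIF4E control, 17 were tested and 0 passed (limma), with a median of 0.02. Among them 2 were all above and 2 all below (11.8% each; 15.1% and 12.5% of all probe sets). Eif4e, the cap-binding protein, had 1 probe set without overlap, 1423220_at, at 563.5, 536.6 and 487.8 against 373.5, 356.3 and 371.4 (0.51 ± 0.17, adjusted p = 0.14; 0.11 and overlapping with arrays centred on their medians). Its brightest probe set, 1450908_at, read 699.8, 809.1 and 645.7 against 826.9, 821.5 and 622.4 and overlapped (-0.07 ± 0.19, adjusted p = 0.87). Eif4e2, a cap-binding repressor, was all above on its brightest probe set (0.57 ± 0.23, adjusted p = 0.206; 0.17 and overlapping with that centring).

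Eif4g3, a scaffold paralogue that joins eIF4E to eIF4A, read 285.5, 276.8 and 278.7 against 427.9, 450.1 and 416.9. Both groups were tight and well apart (-0.59 ± 0.17, adjusted p = 0.101). Eif4g2, a scaffold that lacks the eIF4E site, gave 0.25 ± 0.22 on its brightest probe set, with overlap and -0.15 with arrays centred on their medians. Eif4ebp2, the main eIF4E-binding protein of brain, had a probe set, 1437733_at, at 77.6, 29.8 and 9.97 against 149.7, 107.6 and 122.7. All knockout arrays were below, Ko1 furthest (-1.56 ± 0.42, adjusted p = 0.0905; called lower with arrays centred on their medians, -1.96, adjusted p = 0.0372). Its brightest probe set, 1417084_at, overlapped (0.33 ± 0.27, adjusted p = 0.515; -0.074 with arrays centred on their medians). Eif4ebp1 was too dim to be tested.

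For start codon selection, subunit joining and control of the large subunit, 18 of 18 probe sets of 7 genes were tested and 0 passed (limma), with a median of -0.22. Among them 2 were all above and 2 all below (11.1% each; 15.1% and 12.5% of all probe sets). All 5 probe sets of Eif5, the activator of GTP hydrolysis by eIF2, had differences below 0, from -0.34 to -0.15, with the groups overlapping in each. Eif1b, a start codon scanning factor, read 766, 809.5 and 917.9 against 1033, 1012 and 994.8, all below (-0.28 ± 0.16, adjusted p = 0.349). Eif5b, the GTPase of subunit joining, had 1 probe set below and another above. The brightest, 1434604_at, read 122.9, 79.8 and 163.3 against 205.2, 237.8 and 190.2 (-0.76 ± 0.26, adjusted p = 0.145). The dimmest, 1435592_at, read 103.4, 83.0 and 37.6 against 35.2, 19.4 and 29.6 (0.98 ± 0.34, adjusted p = 0.154). Eif6, which keeps the large subunit from joining early, gave 0.22 ± 0.24 on its brightest probe set (-0.18 with arrays centred on their medians), Eif1a -0.24 ± 0.27 and Eif1ax 0.01 ± 0.20.

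The kinase and methyltransferases that modify elongation factors had 12 probe sets of 5 genes, of which 9 were tested and 0 passed (limma), with a median of -0.02. Eef2k, the kinase that inactivates eEF2 and is itself regulated by calcium, read 31.7, 46.0 and 53.1 against 92.4, 72.5 and 78.6 on its brightest probe set. This was the one probe set of the group with all knockout arrays below (-0.72 ± 0.24, adjusted p = 0.139). Its other tested probe sets gave -0.30 ± 0.40 and 0.05 ± 0.29. The former, 1439860_at, had means of 24.5 on knockout and 29.8 on heterozygous arrays. It passed the limit of 26.7 through the heterozygous arrays alone, and its difference is a description. The eEF1A methyltransferase gene Eef1akmt1 gave -0.10 ± 0.26 on its brightest probe set and Eef1akmt2 0.14 ± 0.23. The Eef1akmt1 probe set 1435269_at, with means of 30.5 on knockout and 25.45 on heterozygous arrays, was tested because of its knockout level.

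Probe sets of 1 gene often disagreed. Of 29 genes with several tested probe sets (88 in all), 20 had differences of both signs, and the median range within a gene was 0.73 on the log2 scale. Eif4b and Eif5b each had 1 probe set above and another below without overlap. The ranges were widest for Eif3c (1.93), Eif4ebp2 (1.89), Eif5b (1.74), Eif4a1 (1.72) and Eif2b2 (1.59). With the brightest tested probe set of each of the 53 genes, 0 passed in either direction (limma), against 0.393% of 11446 genes higher and 1.04% lower. Of these 53, 6 were all above (11.3%; 10% of all genes) and 11 all below (20.8%; 16.1% of all genes), with a median of -0.06 against -0.09. The 59 dimmer probe sets held both calls, with 12 all above (20.3%; 21.9% of the 8474 dimmer probe sets of all genes) and 3 all below (5.08%; 9.15%), and a median of 0.01 against 0.14. The 6 include 1422005_at of Eif2ak2 and the 12 include 1455797_x_at of Eif2d, both tested because of their knockout levels.

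The suffix x marks a probe set with probes that may hybridise to other transcripts. The 13 tested members of this kind had a median of -0.54, against 0.10 over all 1424 of this kind. They were lower on 67 and 68, with medians of -0.73 and -1.08 from the heterozygous mean, and not on Ko1, with 0.34 and 11 of the 13 above that mean. Members with no letter before the ending (70) had a median of 0.00 against -0.01. Which transcripts each probe set detects was not examined. Among members with a mean signal of 300 to 1000 the median was -0.13 (34 probe sets; -0.16 over all probe sets of that level) and above 1000 it was -0.03 (18 probe sets; 0.10 over all).

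**Figure D5:**
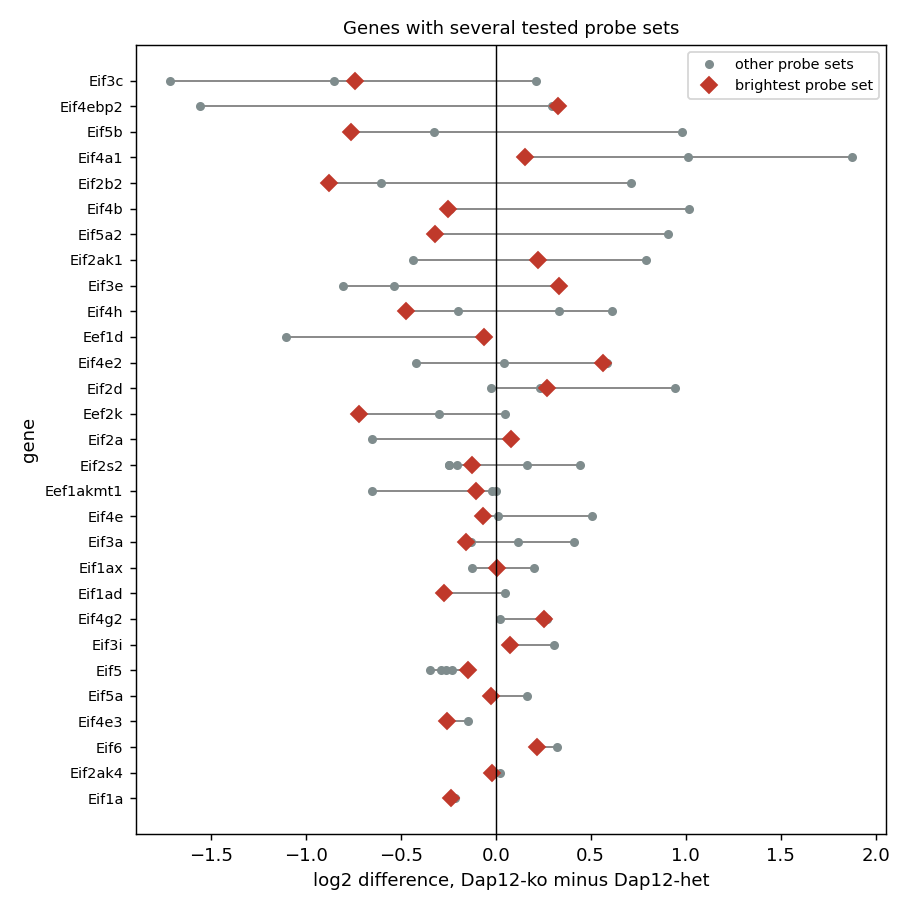
Log2 difference (Dap12-ko minus Dap12-het, x axis) of every tested probe set of the 29 translation factor genes with several (y axis), ordered by their range. Red diamonds are the brightest probe set of a gene and grey points the others; for Eif4a1 the brightest lies at 0.15 and the called ones at 1.01 and 1.87.

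The 38 probe sets that were too dim had mean signals of up to 23.8, and the dimmest tested one 27.2. Of these 38, 7 were all above and 1 all below, with no test. The same shares over all untested probe sets were not computed. Among all tested probe sets with a mean signal below 100, 18.5% were all above and 6.61% all below. The 38 hold the whole record of Eif4a3, Eif4ebp1 and Eef2kmt here. For Eif4ebp1 the brightest of 3 had means of 21.7 and 12.1 on knockout and heterozygous arrays. Eif1, Eif2s1, Eif4g1 and Eef1g were not analysed here, since no probe set was paired with their symbol alone.

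Genes that act with these factors were read from their brightest probe set. Of 32 listed genes for termination, recycling, poly(A) binding and the making of hypusine and diphthamide, 31 were tested and 0 passed (limma; 2 at an unadjusted p under 0.05), with a median of -0.03. The smallest p were for Dph3, of diphthamide synthesis (-0.77 ± 0.30, adjusted p = 0.188), Gfm2, a mitochondrial recycling factor (0.66 ± 0.29, adjusted p = 0.229), and Gspt2, a release factor GTPase (-0.57 ± 0.25, adjusted p = 0.242). Of 28 listed genes of the mTOR pathway and cap-binding control, 25 were tested and 0 passed (limma; 1 at an unadjusted p under 0.05), with a median of -0.05. Rptor, the mTORC1 scaffold, read 142.2, 113.5 and 117.2 against 213.9, 213.1 and 189.2, all below (-0.66 ± 0.19, adjusted p = 0.104). Akt1s1, an inhibitor in that complex, gave 0.76 ± 0.37 (adjusted p = 0.276) and Ddit4l 0.54 ± 0.30 (adjusted p = 0.348).

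The integrated stress response is the programme started by the eIF2 alpha kinases. Of 39 listed genes 35 were tested and 0 passed (limma; 5 at an unadjusted p under 0.05), with a median of -0.09, 0 all above and 8 all below. Atf4, the transcription factor whose translation rises when eIF2 alpha is phosphorylated, read 258.4, 259.6 and 522.9 against 626.8, 692.6 and 645.4. All knockout arrays were below, 67 and 68 furthest (-0.96 ± 0.28, adjusted p = 0.103). Its targets Shmt2, of serine metabolism, and Eprs, a tRNA synthetase, gave -0.82 ± 0.25 (adjusted p = 0.117) and -0.76 ± 0.24 (adjusted p = 0.122), also all below. These 3 genes are named for their smallest p, and the list did not share a direction. Sesn2 (0.76 ± 0.53), Vldlr (0.55 ± 0.27), Herpud1 (0.55 ± 0.36) and Psat1 (0.33 ± 0.24) had differences above 0, each with overlap. Over all genes read this way 10% were all above and 16.1% all below.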

How the data were processed

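The deposited values are linear signal intensities of each probe set, which the authors made with GCOS, the Affymetrix software, per the submitters' processing notes; its version and algorithm are not given in the sources used here. Each array had a mean of 100 after trimming 2% at each end. RNA was extracted with Trizol and RNeasy and labelled with biotin by the one-cycle method, per the labels' protocols. Values were taken as log2(signal + 16). The 22518 non-control probe sets with a mean signal above the median were fitted with limma 3.58.1 in R 4.3.3 (1 group term, eBayes with trend, two-sided) and adjusted by Benjamini-Hochberg over all of them, with 0.05 as the threshold. The fit was also run on simulated arrays, all drawn with the spread of the heterozygous arrays. Since the knockout arrays differed more among themselves, that run cannot show how the fit behaves on these data. Errors of log2 differences are SE, those of signals SD with n = 3; the number of arrays limits the precision. Symbols came from GEO's platform annotation (34945 probe sets with 1 symbol, 932 with several, 9160 with none), and the 150 members matched RefSeq by gene identifier. Members, role groups and gene lists were chosen with earlier results of these data known. Named were Tyrobp; members past the threshold and the other probe sets of their gene; the 8 with the smallest p in each direction; the brightest probe set of fixed factors; and, of the other lists, the 3 with the smallest p. Other members were named after their values were seen. Alternatives were quantile normalization, centring, a floor of 1, 64 added, other filters, eBayes without trend or robust, leaving out arrays, and 1 value per gene.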

Additional observations from a re-analysis of the deposited data

How the results depend on the processing

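The count of translation factor probe sets past the threshold (2) was 1 with quantile normalization, with a floor of 1, without a filter on level, without a trend of the spread and with the mean of the probe sets of a gene; it was 4 with the dimmest 75% of probe sets left out and 0 with the brightest probe set of each gene (limma; 15 at an unadjusted p under 0.05). Leaving out Ko1 gave 33 of 112, beside 5358 of all 22518 probe sets. Leaving out any other single array gave 0 (limma; 15 to 21 at an unadjusted p under 0.05), beside 0 to 29 of all probe sets. The count was 27 without Ko1 and 81, beside 4592 of all probe sets. Without 67 and 68 neither Eif4a1 call was kept, and the single knockout array left gave differences of 1.51 and 0.74. Over all probe sets (466) the count was 125 with quantile normalization, 124 without a filter, 172 without a trend, 101 with the brightest probe set and 81 with the mean of each gene, 4592 without Ko1 and 81, and 0 to 5358 with 1 array left out. A filter on mean log2 values, added after seeing the data, gave 445. Factors without overlap (32 of 112) numbered 17 of 53 with the brightest probe set and 15 of 53 with the mean of each gene. They numbered 83 of 112 without 67 and 68, 78 without Ko1 and 81, and 36 to 71 with 1 array left out. The share over all probe sets was not computed for the mean of each gene, without Ko1 and 81, or with 1 array left out. These counts are therefore descriptions and no result about the factors. With fewer arrays, lack of overlap is easier to reach for any probe set. Without 67 and 68 it means only that Ko1 lay outside the heterozygous range. Among all probe sets Ko1 lay above that range for 35.4% and below it for 34.6%. The median of the factors was -0.43 with arrays centred on their medians, 0.13 without 67 and 68, and -0.11 to -0.01 with 1 array left out.

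Of 722 alternatives over 43 named probe sets, 609 kept direction and side of the threshold, 26 lost the threshold, 39 passed it and 48 changed sign; 23 probe sets never changed sign. Centring on the medians changed the sign of the brightest probe sets of Eef1b2 (-0.36), Eif1ax (-0.39), Eif2ak1 (-0.18), Eif2ak3 (-0.31), Eif2b5 (-0.36), Eif3e (-0.069), Eif4a1 (-0.25), Eif4ebp2 (-0.074), Eif4g2 (-0.15) and Eif6 (-0.18), and quantile normalization those of Eef1d (0.061) and Eif4e (0.027). Leaving out 67 and 68 did so for Eef1a1 (0.87), Eif1a (0.25), Eif2ak1 (-0.25), Eif2ak3 (-0.72), Eif2b5 (-0.14), Eif2s2 (0.54), Eif3h (0.27), Eif4ebp2 (-0.15), Eif4h (0.36), Eif5 (0.056), Eif5a (0.28) and Eif6 (-0.20). Leaving out Ko1 and 81 did so for Eef1b2 (-0.20), Eef1d (0.027), Eif1ax (-0.20), Eif2ak4 (0.22), Eif4a1 (-0.11) and Eif4g2 (-0.060). With 1 array left out the range included 0 for Eef1b2 (-0.14 to 0.23), Eef1d (-0.21 to 0.093), Eif1ax (-0.12 to 0.13), Eif2ak3 (-0.12 to 0.49), Eif2ak4 (-0.17 to 0.19), Eif2b5 (-0.065 to 0.14), Eif2s2 (-0.45 to 0.10), Eif3h (-0.20 to 0.085), Eif4a1 (-0.10 to 0.29), Eif4e (-0.20 to 0.0034) and Eif5a (-0.17 to 0.12). The cause was not tested. No paired analysis was possible because the sources used here give no litter or other pairing of knockout and heterozygous mice.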
